A study of Homo sapiens with 21 samples.

Results

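Bile acid synthesis is described here through 10 genes of HepG2/C3A cells: CYP7A1, CYP7B1, CYP8B1, CYP27A1, HSD3B7, AKR1D1, AMACR, SCP2, SLC27A5 and BAAT. They were taken by symbol from a table of 19683 gene symbols, and all 10 were in it. HepG2/C3A is a human liver-derived line of epithelial-like cells, a subclone of the hepatoblastoma line HepG2, labelled wild type in every library. It was grown either as a flat 2D monolayer, the control, or as 3D spheroids, aggregates made in low-attachment plates that rotated in a bioreactor for 3, 7, 10, 14, 21 or 28 days. The 7 groups hold 3 libraries each, 21 in all, and the same medium with serum is given for all of them. No other treatment, bile acid or sterol feeding is named in the labels. The study's question was how gene expression changes while spheroids form and are kept.

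Bile acids are made from cholesterol in hepatocytes and secreted into bile, which disposes of cholesterol, and in the gut they emulsify dietary fat. In the classic route CYP7A1 starts by hydroxylating the sterol ring. In the alternative route CYP27A1 starts on the side chain and CYP7B1 hydroxylates the ring afterwards. CYP8B1 then decides whether cholic acid is formed, HSD3B7 and AKR1D1 rearrange and reduce the ring, AMACR and SCP2 act in the peroxisomal shortening of the side chain, and SLC27A5 and BAAT attach coenzyme A and then glycine or taurine. Bile acids returning to the liver repress CYP7A1 through the nuclear receptor FXR (NR1H4), its target SHP (NR0B2) and the FGF19 receptor FGFR4 with KLB.

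Levels were measured by TempO-Seq, an assay that joins 2 neighbouring probes on their target RNA and counts the joined products by sequencing. A level therefore depends on its probe and is compared between groups of libraries, not between genes. Levels are given in CPM, counts relative to a TMM-scaled library size, as mean ± SD with n = 3 libraries. Log2 fold changes are given ± SE from edgeR's quasi-likelihood test. A difference was called where its p-value, adjusted by Benjamini-Hochberg over all 12345 genes tested, was under 0.05, and "higher", "lower", "rose" and "fell" stand for called differences. CYP7B1 and AMACR had too few counts for the test, so 8 of the 10 genes were tested. Replicates are labelled biological without naming separate cultures, so the p-values measure only the spread between these samples, part of which may be technical. Each library was made from 100 ng of RNA, and fewer cells of a type and less RNA per cell cannot be told apart.

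The RefSeq promoter table (GRCh38.p14) held 7 of the 10 genes. HSD3B7, AKR1D1 and BAAT are shown, each up to its start site or to the first annotated exon, because they changed in 3 different ways over time and their windows hold a searched word. Capitals mark the words found, which are named after the sequences.
HSD3B7, chr16:30984957-30985206, plus strand: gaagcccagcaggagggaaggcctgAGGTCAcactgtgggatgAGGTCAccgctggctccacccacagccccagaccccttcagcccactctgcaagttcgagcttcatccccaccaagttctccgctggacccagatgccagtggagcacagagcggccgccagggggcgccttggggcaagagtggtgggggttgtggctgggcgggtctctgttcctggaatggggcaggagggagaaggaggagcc
AKR1D1, chr7:138076209-138076431, plus strand: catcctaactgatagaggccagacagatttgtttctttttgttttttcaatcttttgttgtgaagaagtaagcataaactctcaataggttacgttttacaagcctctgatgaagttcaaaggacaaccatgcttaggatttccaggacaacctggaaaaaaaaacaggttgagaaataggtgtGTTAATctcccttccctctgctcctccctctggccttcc
BAAT, chr9:101383565-101383814, minus strand: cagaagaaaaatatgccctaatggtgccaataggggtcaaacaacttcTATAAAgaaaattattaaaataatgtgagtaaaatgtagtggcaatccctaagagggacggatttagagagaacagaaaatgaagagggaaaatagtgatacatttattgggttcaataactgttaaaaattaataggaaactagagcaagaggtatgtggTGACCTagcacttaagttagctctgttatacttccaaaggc

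The HSD3B7 window holds AGGTCA, the core of nuclear receptor sites, at 225 and at 207 bases before the start site. The BAAT window shown holds it on the opposite strand at 41 bases, and TATAAA, the letters of a TATA box, at 202 bases. The table has a second BAAT start upstream, whose window holds none of the words. The AKR1D1 window holds GTTAAT, a word of the HNF1 type, at 66 bases. The searches covered 7 words on both strands of the 250 bases before each start. AGGTCA occurs in 12.1% of all 35116 promoter windows of that length, TATAAA in 10.7% and GTTAAT in 6.23%. CAAAGTCC, an HNF4 type word, was found in the SLC27A5 window 104 bases before its start and occurs in 1.02% of all windows. That window lies within the annotated span of SLC27A5 and overlaps an exon of the gene. The AKR1D1 window also lies within the annotated span of its gene, but the part shown meets no annotated coding gene exon. CAAGGTC of the NR5A2 type (2.84% of windows), TGTTTAC of the FOXA type (2.98%) and TCACNCCAC of the sterol response type (0.883%) were in none of the 9 member windows. GC content was 65.6% in the HSD3B7 window, 40.8% in that of AKR1D1 and 34.8% in that of BAAT, against a median of 58.0% over all windows. A match is a stretch of letters and was not measured as a binding site.

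Most of the pathway stood higher in spheroids than in the monolayer from the first collection on, and BAAT, the last enzyme, stood lower. At Day 3, 6 of the 8 tested genes were higher than in the monolayer, where 40.1% of all genes tested were, and 2 were lower, where 37.8% were. The higher ones were CYP8B1, CYP27A1, HSD3B7, AKR1D1, SCP2 and SLC27A5, and these 6 were also called higher at every later day. BAAT was called lower at all 6 days. CYP7A1 was lower at Day 3, was not called at Days 7, 10 and 14, and was higher at Days 21 and 28. The counts were therefore 6 higher and 1 lower at Day 7 (all genes tested: 40.4% and 38.4%), the same at Day 10 (40.0% and 37.9%) and at Day 14 (38.7% and 35.7%). They were 7 higher and 1 lower at Day 21 (39.3% and 35.1%) and at Day 28 (38.5% and 34.8%). The median log2 fold change of the 8 genes was 1.59 at Day 3, 2.01 at Day 21 and 1.65 at Day 28, while that of all genes tested was 0.06, 0.09 and 0.08. All 6 comparisons share the 3 monolayer libraries.

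**Figure D1:**
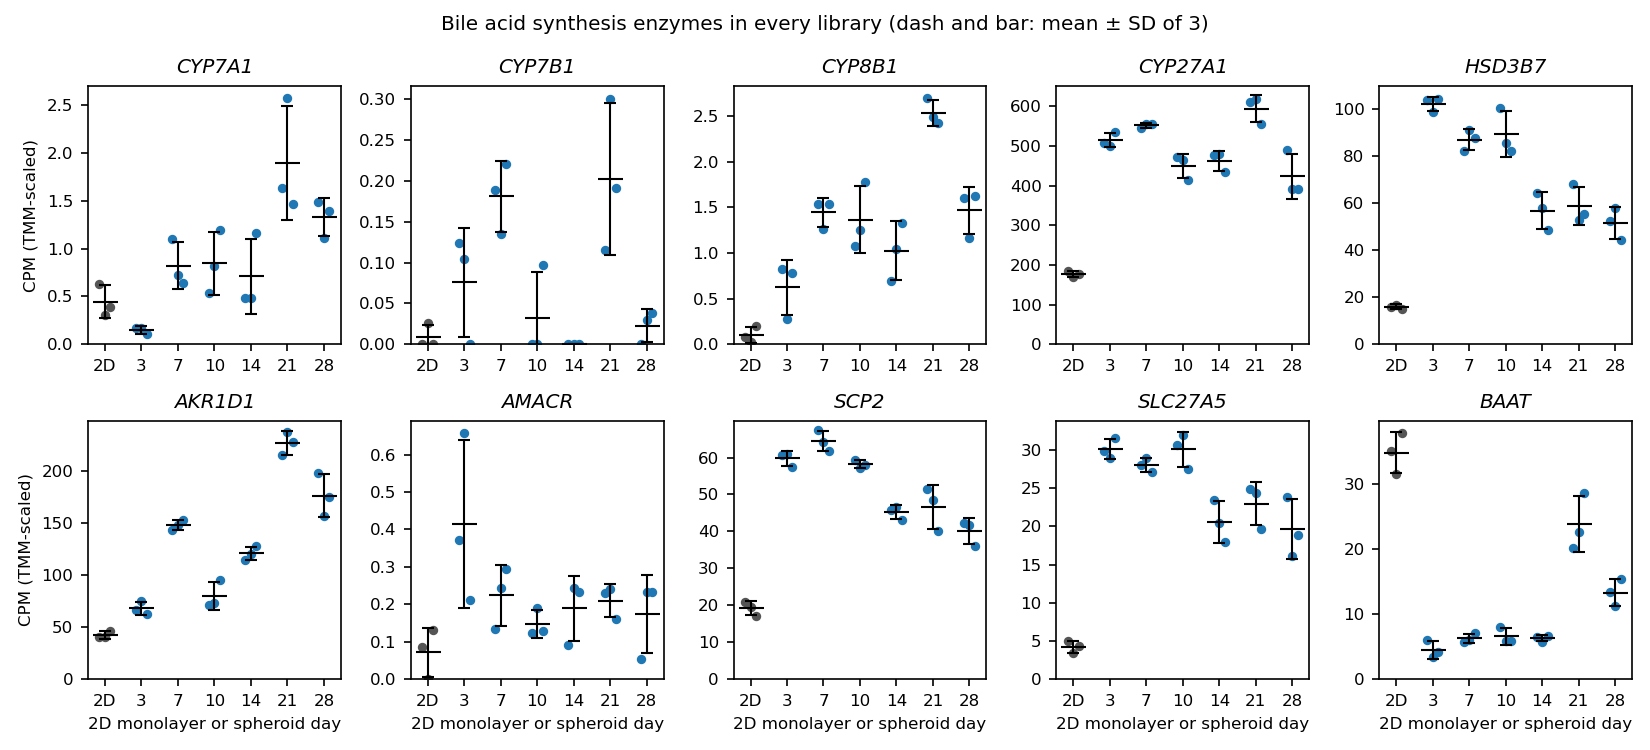
CPM of each of the 10 bile acid synthesis genes (vertical axes, each on its own linear scale) in the 3 libraries of the monolayer (2D) and of each spheroid day (horizontal axis); points are libraries, and lines and bars give the mean and SD. HSD3B7, SCP2 and SLC27A5 were highest at Days 3 to 10, AKR1D1, CYP7A1 and CYP8B1 at Day 21, and BAAT in the monolayer. The CYP7A1 libraries of Days 21 and 28 overlapped.

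**Figure D2:**
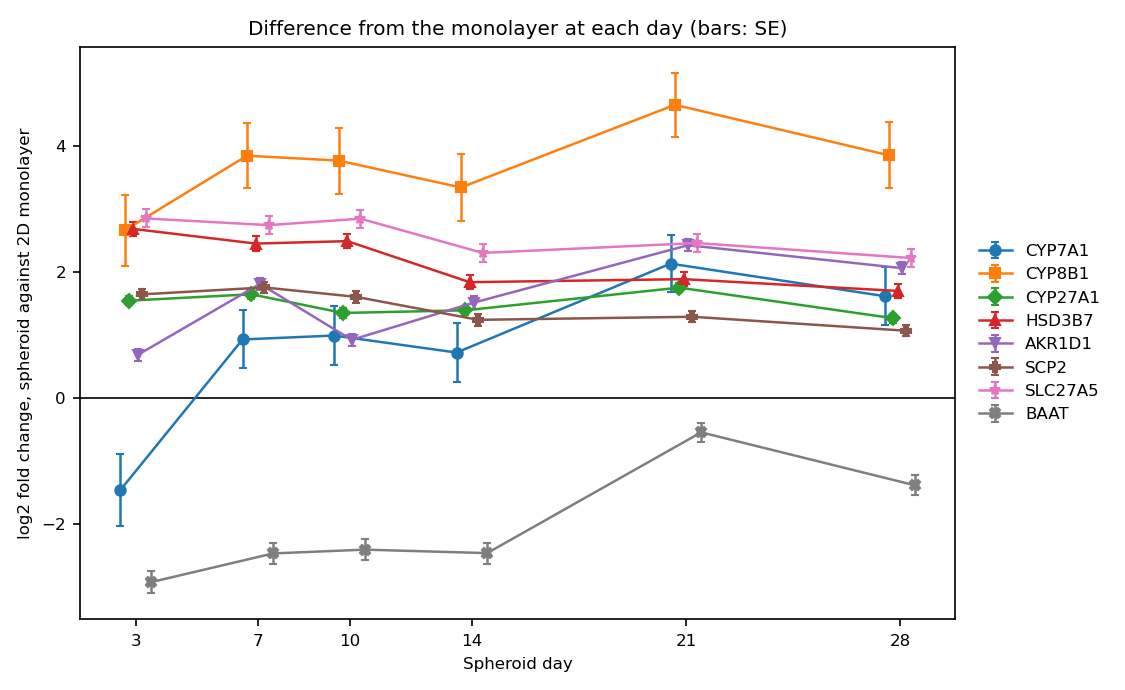
Log2 fold change (vertical axis) of the 8 tested genes in each spheroid day against the monolayer (horizontal axis), with bars for 1 SE; points of a day are set apart sideways so that they can be seen. CYP7A1 runs from -1.47 at Day 3 to 2.13 at Day 21, and BAAT lies below 0 at all 6 days.

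CYP7A1, the rate-limiting enzyme of the classic route, was close to the detection limit in both kinds of culture. Its 21 libraries held 584 counts together. The monolayer libraries held 15, 12 and 12 counts, those of Day 3 held 7, 5 and 3, and those of Day 7 held 41, 27 and 26. The counts were 13, 30 and 37 at Day 10, 16, 14 and 35 at Day 14, 57, 86 and 46 at Day 21, and 28, 38 and 36 at Day 28. No Day 3 library reached the CPM of any monolayer library, and no Day 21 or Day 28 library came down to it, whereas Days 10 and 14 overlapped the monolayer. Its level was 0.444 ± 0.171 CPM in the monolayer, 0.151 ± 0.0388 CPM at Day 3 and 1.89 ± 0.599 CPM at Day 21. It was 2.77-fold lower at Day 3 (log2 -1.47 ± 0.57, adjusted p = 0.0196), 4.37-fold higher at Day 21 (2.13 ± 0.45, adjusted p = 7.82e-05) and 3.06-fold higher at Day 28 (1.61 ± 0.46, adjusted p = 0.00226). At Day 7 the log2 fold change was 0.93 ± 0.46, at Day 10 it was 0.99 ± 0.47 and at Day 14 it was 0.72 ± 0.47, with adjusted p-values of 0.0659, 0.0532 and 0.17. The Day 3 call rests on few counts: leaving out monolayer replicate 1 (adjusted p = 0.0837) or Day 3 replicate 3 (0.0632) ended it. Over all its alternatives the adjusted p ran from 0.0116 to 0.0837.

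CYP8B1, which introduces the hydroxyl group of cholic acid, was also counted rarely, with 824 counts in all, but its groups were further apart. The monolayer libraries held 2, 1 and 6 counts and the Day 3 libraries 33, 8 and 22. At Day 7 they held 57, 47 and 63, at Day 10 26, 46 and 55, at Day 14 23, 30 and 40, at Day 21 94, 83 and 76, and at Day 28 30, 40 and 42. All 18 spheroid libraries lay above all 3 monolayer libraries in CPM, and all Day 21 libraries lay above every other library. The level went from 0.102 ± 0.0861 CPM in the monolayer to 0.625 ± 0.303 CPM at Day 3 and 2.54 ± 0.142 CPM at Day 21. With so few monolayer counts the size of the difference is loosely set: log2 2.65 ± 0.56 at Day 3 (adjusted p = 7.11e-05), 4.65 ± 0.50 at Day 21 (5.82e-10) and 3.85 ± 0.53 at Day 28 (7.38e-08). At Day 21 the log2 value ran from 4.11 to 5.63 over the alternatives and the call held in each of them. The table gives 1 count per symbol, and CYP8B1 overlaps the coding genes ACKR2 and KRBOX1 in the annotation.

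CYP27A1, the mitochondrial enzyme that starts the alternative route, was well covered, with 4334 to 22663 counts in a library. Its level was 184, 169 and 178 CPM in the 3 monolayer libraries and between 390.3 and 617 CPM in all 18 spheroid libraries, so the 2 kinds of culture did not overlap. It was 2.91-fold higher at Day 3 (log2 1.54 ± 0.07, adjusted p = 4.11e-19), 3.36-fold higher at Day 21 (1.75 ± 0.07, adjusted p = 2.15e-20) and 2.40-fold higher at Day 28 (1.26 ± 0.07, adjusted p = 1.21e-16). Its day means in spheroids lay between 424 ± 56.7 CPM at Day 28 and 593 ± 34.3 CPM at Day 21. CYP7B1, which follows it in that route, had 55 counts in all libraries together and 0 in 9 of the 21. It held 7, 5 and 9 counts at Day 7 and 4, 10 and 6 at Day 21, and 0 in all 3 Day 14 libraries. A count of 0 over the Day 14 libraries allows a level of up to 0.0326 CPM, a limit that covers counting error only. When tested without the filter on low counts, CYP7B1 was called in none of the 13 comparisons, with adjusted p-values from 0.0536 for Day 21 against Day 14 to 0.751. Its libraries at Days 7 and 21 nevertheless lay above all 3 monolayer libraries, which held 0, 1 and 0 counts.

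The 2 ring-modifying enzymes followed different courses. HSD3B7, which oxidises the ring after its hydroxylation, stood at 15.9, 16.9 and 14.9 CPM in the monolayer and at 104, 98.5 and 104 CPM at Day 3, a 6.41-fold difference (log2 2.68 ± 0.11, adjusted p = 1.59e-18). Its later values were 82.0, 91.0 and 87.5 CPM at Day 7, 100.4, 85.3 and 82.1 at Day 10, 64.2, 57.7 and 48.3 at Day 14, 68.1, 52.8 and 55.2 at Day 21, and 52.1, 58.0 and 44.4 at Day 28. The spheroids thus fell into a higher set of days, 3 to 10, and a lower set, 14 to 28, with no library of the one set overlapping the other, and the lower set still lay above the monolayer. At Day 28 HSD3B7 was 3.24-fold above the monolayer (log2 1.70 ± 0.11, adjusted p = 8.21e-14).

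AKR1D1, the reductase that gives the sterol ring its bent form, stood at 40.4, 40.0 and 46.6 CPM in the monolayer and at 66.0, 74.8 and 62.7 CPM at Day 3. It was at 143, 148 and 153 CPM at Day 7, back at 71.0, 73.4 and 95.6 at Day 10, and at 115, 120.0 and 127 at Day 14. The highest libraries were those of Day 21, at 215, 238 and 227 CPM, followed by Day 28 at 198, 157 and 174 CPM. Apart from Days 3 and 10, which overlapped, no 2 groups next to each other in the order of means shared a value. AKR1D1 was 1.60-fold above the monolayer at Day 3 (log2 0.68 ± 0.10, adjusted p = 4.51e-07) and 5.36-fold at Day 21 (2.42 ± 0.10, adjusted p = 3.39e-18).

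The 2 peroxisomal side-chain genes differed in how far they could be measured. SCP2, which encodes a sterol carrier protein and a thiolase that cleaves the side chain, stood at 20.8, 19.6 and 17.1 CPM in the monolayer and at 36.1 to 67.4 CPM in the 18 spheroid libraries, with no overlap. It was 3.12-fold higher at Day 3 (log2 1.64 ± 0.09, adjusted p = 1.91e-17) and 2.09-fold higher at Day 28 (1.06 ± 0.09, adjusted p = 2.48e-12). Like HSD3B7, SCP2 had its lower spheroid days at 14 to 28, with no overlap with Days 3 to 10. AMACR, the racemase that readies the side chain for oxidation, held 139 counts in all and 0 to 19 in a library. The monolayer libraries held 2, 0 and 4 counts and the Day 3 libraries 15, 19 and 6. Without the filter on low counts it was called higher at Day 3 (log2 2.54 ± 1.13, adjusted p = 0.0418) and in no other of the 13 comparisons. In the annotation AMACR overlaps the readthrough gene C1QTNF3-AMACR, whose counts cannot be told apart from it here.

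The 2 conjugation enzymes differed in direction. SLC27A5, the bile acid coenzyme A ligase, stood at 5.00, 3.44 and 4.33 CPM in the monolayer and at 16.1 to 32.0 CPM in the 18 spheroid libraries. It was 7.19-fold higher at Day 3 (log2 2.85 ± 0.14, adjusted p = 1.84e-18) and 4.65-fold higher at Day 28 (2.22 ± 0.14, adjusted p = 2.92e-15). BAAT, which transfers the activated bile acid to glycine or taurine, stood at 35.0, 31.5 and 37.7 CPM in the monolayer and at 5.99, 3.36 and 4.15 CPM at Day 3. It stayed low at 5.76, 5.92 and 7.08 CPM on Day 7, 8.07, 5.80 and 5.87 on Day 10 and 6.53, 5.73 and 6.57 on Day 14. At Day 21 it was at 20.1, 22.6 and 28.5 CPM and at Day 28 at 13.3, 11.3 and 15.3 CPM. Every spheroid library thus lay below every monolayer library, Days 3, 7, 10 and 14 overlapped one another in the order of their means, and Days 21 and 28 lay apart above them. BAAT was 7.61-fold lower than the monolayer at Day 3 (log2 -2.93 ± 0.17, adjusted p = 7.38e-16), 1.46-fold lower at Day 21 (-0.55 ± 0.15, adjusted p = 0.00192) and 2.62-fold lower at Day 28 (-1.39 ± 0.16, adjusted p = 4.14e-09).

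Within 3D culture all 8 tested genes changed among the 6 days by an F test of any change (76.2% of all genes tested did), with adjusted p-values from 8.34e-15 for AKR1D1 to 0.000755 for CYP8B1. From Day 3 to Day 7, CYP7A1 rose 5.25-fold (log2 2.39 ± 0.53, adjusted p = 0.00123), CYP8B1 2.28-fold (1.19 ± 0.39, adjusted p = 0.0285) and AKR1D1 2.18-fold (1.13 ± 0.10, adjusted p = 3.76e-09). These 3 of the 8 rose and none fell, where 10.6% of all genes tested rose and 8.76% fell. HSD3B7 was at log2 -0.23 ± 0.10 (adjusted p = 0.113) and BAAT at 0.46 ± 0.18 (adjusted p = 0.0685), neither called, although both passed the threshold under some alternatives. The rise of CYP8B1 was lost when Day 3 replicate 2 (adjusted p = 0.164), Day 7 replicate 1 (0.0623) or Day 7 replicate 3 (0.0862) was left out. Over its alternatives that adjusted p ran from 0.0104 to 0.164. From Day 7 to Day 10 no gene rose (13.9% of all genes tested) and 2 fell (13.5%): AKR1D1 1.85-fold (log2 -0.89 ± 0.09, adjusted p = 1.02e-07) and CYP27A1 1.23-fold (-0.30 ± 0.07, adjusted p = 0.00204).

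From Day 10 to Day 14, HSD3B7, SLC27A5 and SCP2 fell together, which is 3 of the 8 genes where 24.3% of all genes tested fell. The falls were 1.57-fold for HSD3B7 (log2 -0.65 ± 0.10, adjusted p = 6.21e-06), 1.46-fold for SLC27A5 (-0.54 ± 0.12, adjusted p = 0.000461) and 1.29-fold for SCP2 (-0.36 ± 0.09, adjusted p = 0.000674). AKR1D1 alone of the 8 rose, 1.51-fold (log2 0.59 ± 0.09, adjusted p = 7.72e-06), where 24.0% of all genes tested rose. From Day 14 to Day 21, 5 of the 8 rose and none fell, where 13.9% and 12.7% of all genes tested did. BAAT rose 3.78-fold (log2 1.92 ± 0.17, adjusted p = 4.29e-10), CYP7A1 2.66-fold (1.41 ± 0.42, adjusted p = 0.0117), CYP8B1 2.48-fold (1.31 ± 0.37, adjusted p = 0.00726), AKR1D1 1.88-fold (0.91 ± 0.09, adjusted p = 2.97e-08) and CYP27A1 1.28-fold (0.36 ± 0.07, adjusted p = 0.000244). The CYP7A1 rise was lost without Day 14 replicate 1 (adjusted p = 0.0696), Day 14 replicate 2 (0.0712) or Day 21 replicate 2 (0.0964), the library with its highest count, and over the alternatives its adjusted p ran from 0.00358 to 0.0964. HSD3B7, SCP2 and SLC27A5 had log2 differences of 0.05 ± 0.10, 0.05 ± 0.09 and 0.16 ± 0.12 at this step and were not called. From Day 21 to Day 28, 3 of the 8 fell (14.0% of all genes tested) and none rose (10.0%): BAAT 1.79-fold (log2 -0.84 ± 0.16, adjusted p = 0.000221), CYP27A1 1.40-fold (-0.49 ± 0.07, adjusted p = 5.72e-06) and AKR1D1 1.29-fold (-0.36 ± 0.09, adjusted p = 0.00484). Steps that follow each other share the libraries of the day between them.

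**Figure D3:**
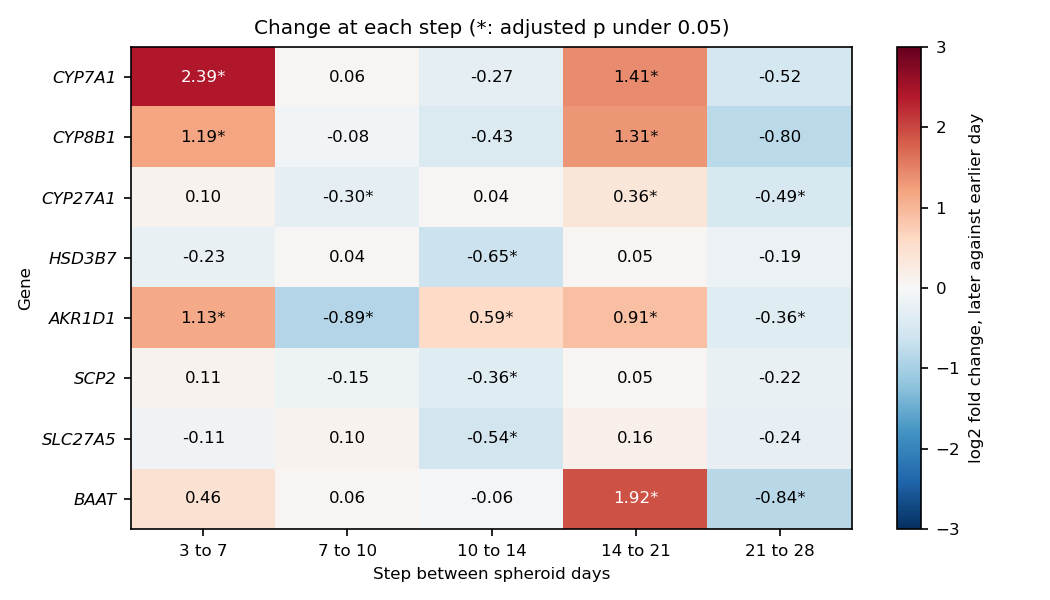
Log2 fold change, as colour and number, of each tested gene (vertical axis) at the 5 steps from one spheroid day to the next (horizontal axis); a star marks a called difference, red a rise and blue a fall. From Day 14 to Day 21 the called rises reach from 0.36 for CYP27A1 to 1.92 for BAAT, while HSD3B7, SCP2 and SLC27A5 stand at 0.05, 0.05 and 0.16.

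Between the first and the last spheroid day the 8 genes split evenly. By Day 28, 4 were higher than at Day 3, where 29.5% of all genes tested were, and 4 were lower, where 30.2% were. CYP7A1 was 8.46-fold higher (log2 3.08 ± 0.52, adjusted p = 5.61e-06), BAAT 2.90-fold (1.54 ± 0.17, adjusted p = 6.94e-09), AKR1D1 2.60-fold (1.38 ± 0.10, adjusted p = 1.3e-12) and CYP8B1 2.29-fold (1.19 ± 0.40, adjusted p = 0.0105). Of these only the CYP8B1 call was lost in an alternative, without Day 3 replicate 2 (adjusted p = 0.0657, the highest in a range that starts at 0.00329). HSD3B7 was 1.98-fold lower (log2 -0.98 ± 0.10, adjusted p = 3.78e-09), SLC27A5 1.54-fold (-0.63 ± 0.13, adjusted p = 6.55e-05), SCP2 1.49-fold (-0.58 ± 0.09, adjusted p = 8.05e-07) and CYP27A1 1.21-fold (-0.28 ± 0.07, adjusted p = 0.00115). The libraries of the 2 days did not overlap for any of the 8, but the share of all genes tested without overlap was not counted.

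Further enzymes of the pathway were followed in a list of 9 genes, of which 7 were tested. At Day 3, 5 were higher and 2 lower than in the monolayer (all genes tested: 40.1% and 37.8%), with a median log2 fold change of 0.86. At Day 28, 4 were higher and 1 lower (38.5% and 34.8%), with a median of 0.80. SLC27A2, a peroxisomal coenzyme A ligase, was higher by log2 2.73 ± 0.17 at Day 3 and 2.54 ± 0.17 at Day 28. The acyl-CoA oxidase ACOX2, the bifunctional protein HSD17B4 and the thioesterase ACOT8, all of peroxisomal side-chain shortening, were higher on both days, at 1.16 ± 0.10, 0.86 ± 0.07 and 1.36 ± 0.08 on Day 3. The lower genes at Day 3 were AKR1C4, a reductase that works next to AKR1D1, at log2 -2.50 ± 0.09, and CYP39A1, an oxysterol hydroxylase, at -2.49 ± 0.51. CYP39A1 was rarely counted, with 25 counts at Day 3. Its mean was 1.47 CPM in the monolayer, 0.265 CPM at Day 3 and 2.25 CPM at Day 28, where it was not called against the monolayer (0.60 ± 0.42). AKR1C4 went from 687 CPM in the monolayer to 121 CPM at Day 3 and 142 CPM at Day 28. Whether related genes of the AKR1C family share counts with it was not tested. CYP46A1 and CH25H, which make other oxysterols, were listed at 0 in the monolayer and at Days 3 and 28. From Day 3 to Day 28, 3 were higher (29.5% of all genes tested) and 1 was lower (30.2%). The higher ones were CYP39A1 at 3.09 ± 0.51, ACOX2 at 0.37 ± 0.10 and AKR1C4 at 0.22 ± 0.09 with overlapping libraries. The lower one was the peroxisomal transporter ABCD3, at -0.74 ± 0.06.

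Partners that pass electrons to the cytochromes P450 were followed in a list of 4 genes. POR, which serves the microsomal enzymes CYP7A1, CYP7B1 and CYP8B1, fell from 749 CPM in the monolayer to 406 CPM at Day 3 (log2 -0.88 ± 0.08) and stood at 749 CPM again at Day 28. FDXR, the reductase that serves mitochondrial CYP27A1, was higher at Day 3 by 1.43 ± 0.15 and was not called at Day 28 (0.26 ± 0.15). Of the 4, 2 were higher and 1 lower at Day 3 (median 1.00), where 40.1% and 37.8% of all genes tested were. At Day 28, 2 were higher and none lower (median 0.83, all genes tested 38.5% and 34.8%), and 1 was higher and 2 lower at Day 28 against Day 3 (median 0.00, all genes tested 29.5% and 30.2%). FDX1, which carries the electrons from FDXR, stood at 0.373 to 0.994 CPM in the means of these 3 groups and CYB5A at 0.123 to 1.78 CPM.

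Regulators of the pathway were mostly higher in spheroids. Of the 10 tested of 11, 9 were higher and 1 lower at Day 3 (median log2 1.36), where 40.1% and 37.8% of all genes tested were. At Day 28, 8 were higher and 1 lower (median 1.92, all genes tested 38.5% and 34.8%). NR1H4, the bile acid receptor, stood at 10.4 CPM in the monolayer, 21.9 CPM at Day 3 and 51.4 CPM at Day 28, log2 1.07 ± 0.10 and 2.30 ± 0.10 above the monolayer. Its target NR0B2, a repressor of CYP7A1, went from 51.2 to 138 and 209 CPM over the same groups (1.44 ± 0.07 and 2.03 ± 0.07). NR5A2 and HNF4A, activators of CYP7A1 and CYP8B1, were higher by 2.32 ± 0.43 and 1.34 ± 0.11 at Day 3 and by 3.82 ± 0.41 and 1.81 ± 0.11 at Day 28. KLB, the coreceptor of FGFR4, was higher by 3.68 ± 0.07 at Day 3 and 2.77 ± 0.07 at Day 28, and FGFR4 by 2.01 ± 0.09 and 1.60 ± 0.09. MAFG, a repressor induced by NR1H4, was the lower gene on both days, at -2.19 ± 0.10 and -1.51 ± 0.10. From Day 3 to Day 28, 6 regulators were higher and 3 lower (median 0.53, all genes tested 29.5% and 30.2%), with PPARGC1A, a coactivator of hepatic genes in fasting, at 1.55 ± 0.10 and KLB at -0.90 ± 0.06.

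Among transporters of bile acids and biliary lipids, those that define hepatic uptake and export of bile acids were barely counted. SLC10A1, SLCO1B1 and SLCO1B3, which take bile acids up, and ABCB11, the bile salt export pump, had group means of 0 to 0.11 CPM in the monolayer and at Days 3 and 28 and were not tested. Of the 9 tested of 13, 6 were higher and 2 lower at Day 3 (median log2 1.09, all genes tested 40.1% and 37.8%). At Day 28, 4 were higher and 4 lower (median -0.23), shares near the 38.5% and 34.8% of all genes tested. At Day 28 against Day 3, 3 were higher and 4 lower (median 0.11, all genes tested 29.5% and 30.2%). SLC51A and SLC51B, the 2 chains of the basolateral bile acid exporter, were both higher at Day 3, by 2.60 ± 0.20 and 0.89 ± 0.10. At Day 28 SLC51A was higher by 4.32 ± 0.20, while SLC51B was lower by -0.23 ± 0.10 with overlapping libraries. ABCG5 and ABCG8, which form the sterol exporter, were higher at Day 3 by 2.29 ± 0.13 and 3.56 ± 0.23 and at Day 28 by 2.83 ± 0.13 and 3.83 ± 0.23. ABCC2 was lower at Day 3 by -0.74 ± 0.06, ABCB4, the phospholipid exporter, by -2.80 ± 0.25, and ABCC3 was lower at Day 28 by -1.07 ± 0.11.

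Peroxisomes, where the side chain is cut and BAAT acts, were followed through 15 PEX genes, of which 14 were tested. At Day 3, 8 were higher and 1 lower (median log2 0.57, all genes tested 40.1% and 37.8%). At Day 28, 8 were higher and 2 lower (median 0.69, all genes tested 38.5% and 34.8%). At Day 28 against Day 3, 4 were higher and 4 lower (median -0.11), shares near the 29.5% and 30.2% of all genes tested. PEX10, an import ligase, was higher at Day 3 by 2.28 ± 0.17 and PEX6, an ATPase that recycles import receptors, at Day 28 by 2.92 ± 0.15. PEX13, part of the docking complex, was lower by -0.48 ± 0.06 and -0.70 ± 0.06. PEX7, an import receptor, was listed at 0 in these 3 groups.

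**Figure D4:**
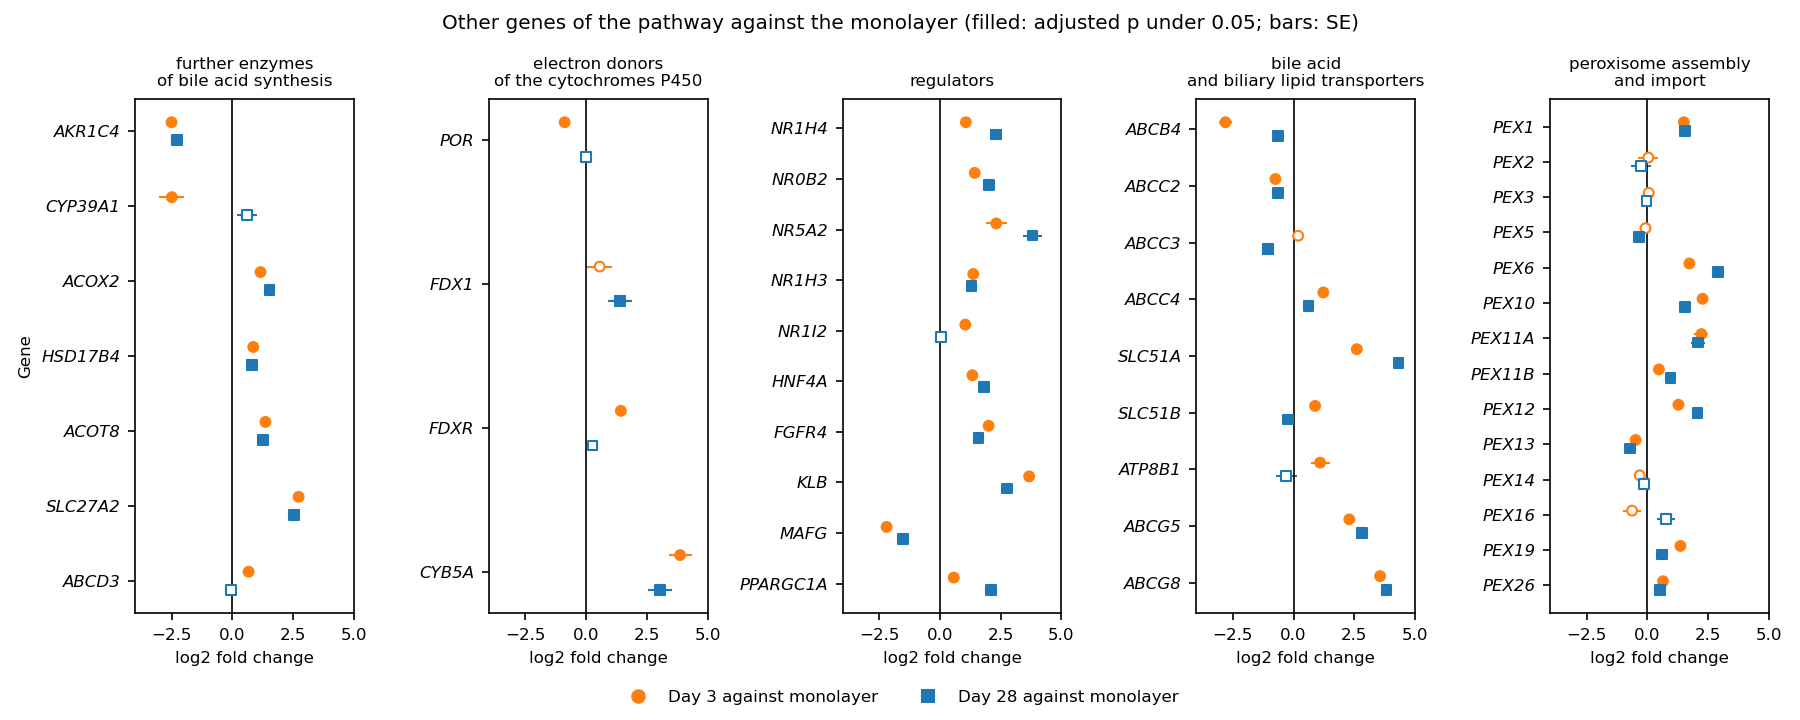
Log2 fold change against the monolayer (horizontal axis) of each tested gene (vertical axis) in the 5 supporting lists, as circles for Day 3 and squares for Day 28 with bars for 1 SE; filled points are called. Regulators lie mostly to the right of 0 on both days with MAFG to the left, while transporters lie on both sides.

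The genes outside the pathway whose profile was most like that of a member were ranked by Pearson's r of log2 CPM over the 21 libraries. This was done for the 6 members with a mean of at least 10 CPM, which leaves out CYP7A1, CYP7B1, CYP8B1 and AMACR. All libraries share the step from monolayer to spheroid, so r over the 18 spheroid libraries is given after it, and both describe these libraries only. HSD3B7 was most like LSM4 (0.99 and 0.98) and SULT1A3 (0.99 and 0.96), a gene with a near-identical copy. SCP2 was most like ACSF2 (0.99 and 0.96) and EHHADH (0.99 and 0.95), and SLC27A5 most like SEPHS1 (0.99 and 0.95) and AIFM1 (0.99 and 0.94). CYP27A1 was most like MXD4 (0.99 and 0.91) and PEBP1 (0.98 and 0.84). AKR1D1 was most like USP30 (0.96 and 0.97) and C16orf70 (0.96 and 0.93), and BAAT most like ANKRD10 (0.96 and 0.93) and PJA2 (0.96 and 0.93).

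Library totals ran from 18760232 to 43443262 counts. The 6 hepatocyte markers (ALB, APOA1, TTR, SERPINA1, TF and HNF4A) were all at counts above 0 and were higher in spheroids at Days 3 and 28. Their sum was 4393 to 4784 CPM in the monolayer, 24484 to 26004 at Day 3, 35843 to 41096 at Day 7, 35555 to 38724 at Day 10, 19524 to 25069 at Day 14, 19845 to 25511 at Day 21 and 16431 to 22396 at Day 28. The sum was thus highest at Days 7 and 10. Of the tested bile acid genes, SCP2 had its highest mean at Day 7, and HSD3B7 and SLC27A5 stood highest at Days 3 to 10. AKR1D1, CYP7A1, CYP8B1 and CYP27A1 had their highest means at Day 21. There the CYP27A1 libraries overlapped those of Day 7, and the CYP7A1 libraries overlapped those of Day 28. BAAT was highest in the monolayer. HNF4A, alone of the 6 markers, was higher at Day 28 than at Day 3.

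Genes listed as markers of other cell types also moved between groups, in libraries that are all labelled as the HepG2/C3A line. Of the 5 cholangiocyte markers, CFTR was at 0 in every group and KRT7 at 0 to 0.0441 CPM in the group means, and the list summed to 532 to 566 CPM in the monolayer, 812 to 866 CPM at Day 3 and 471 to 512 at Day 28. KRT19 stood at 61.4 CPM in the monolayer, was lower at Day 3 with 14.2 CPM and was 59.5-fold lower at Day 28 with 1.03 CPM (adjusted p = 2.69e-17), and SOX9 was 2.02-fold higher at Day 3 (adjusted p = 5.92e-16). Of 4 blood and Kupffer cell markers PTPRC and CD163 were at 0 in every group, and the list summed to 64.6 to 69.2 CPM in the monolayer, 218 to 223 at Day 3, up to 265 at Day 7 and 78.0 to 88.3 at Day 28. LYZ was 8.39-fold higher at Day 3 (adjusted p = 2.57e-25). CD68, the other marker with counts, stood at 47.5 CPM in the monolayer, 52.7 CPM at Day 3 and 27.3 CPM at Day 28. Of the 5 stellate cell and fibroblast markers COL1A1, COL1A2 and DCN were at 0 in every group, and the list summed to 8.35 to 13.4 CPM in the monolayer, 27.4 to 31.1 CPM at Day 3 and 12.8 to 17.7 at Day 28, with ACTA2 higher at Day 3 by log2 1.43 ± 0.14 (adjusted p = 2.93e-10). Of the 5 endothelial markers STAB2 was at 0 in every group and the list summed to at most 2.15 CPM. The part of these shifts in the differences of the bile acid genes was not tested.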

How the data were processed

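TempO-Seq libraries of HepG2/C3A cells, 3 per group in 7 groups, were compared. The authors deposited raw counts per gene symbol; per the submitters' processing notes the build was GRCh38.p13 and the tools were DESeq2 1.38.0, STAR 2.7.10b, fastp 0.23.2 and bcl2fastq 2.20.422, without roles. The sources used here do not say how probes of 1 gene were combined.

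The members and gene lists were chosen with earlier results of these data known. Genes passing filterByExpr (minimum count 10) were kept, 12345 of 19683; the others held 0.0108% of counts. TMM scaling and 1 fit of all 21 libraries were used, with robust quasi-likelihood in edgeR 4.0.16 (R 4.3.3), with 14 residual degrees of freedom and a biological coefficient of variation of 9.62%. Comparisons were of every spheroid day with the monolayer, of successive days, Day 28 with Day 3, and any change among days, with Benjamini-Hochberg adjustment. The SE is the absolute log2 fold change over the square root of F. The script was tested on simulated data. Intervals cover counting error and spread between libraries. Named genes were all 10 members and, per supporting list and main comparison, the called gene with the largest rise and fall among those of at least 10 CPM without overlap, plus other listed genes chosen for their roles after their values were seen. Alternatives were DESeq2 1.42.0, library size scaling, no filter, only the groups compared, a replicate block and each library left out.

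In all 21 replicate pairs the counts differed beyond sampling noise (chi-square over its degrees of freedom 5.68 to 29.7). HBB, a listed marker, was not analysed here. Gene positions are from GENCODE 29.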

Additional observations from a re-analysis of the deposited data

How the results depend on the processing

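Of 78 calls, 74 held in every alternative run that gave a value for the gene. Among such runs the other 4, all of CYP7A1 or CYP8B1, were lost only when 1 library was left out, as given above. Of 1238 values under an alternative, 1199 kept their direction and side of the threshold. From Day 3 to Day 7 the count of genes called was 5 without the low count filter and 5 in a fit of only those groups, against 3. The genes added were HSD3B7 and BAAT without the filter, and HSD3B7 and CYP27A1 in the fit of only those groups. CYP27A1 was called higher there alone (log2 0.11, adjusted p = 0.0374), in a range of 0.0374 to 0.598. At that step HSD3B7 was called lower with library size scaling (adjusted p = 0.042), without the filter (0.0424) and with only those groups (0.00235), in a range of 0.00235 to 0.304. BAAT was called higher without the filter (0.0133), by DESeq2 (0.0498), without Day 3 replicate 1 (0.00607) and with a replicate block (0.0319), in a range of 0.00607 to 0.312. Over all genes tested at that step, the fit of only Days 3 and 7 called 3600, against 2393 in the fit of all libraries. The latter count was 1579 without Day 3 replicate 1 and 1547 without Day 7 replicate 3. From Day 21 to Day 28 a fit of only those groups called 1865 genes against 2964. SLC27A5 was called lower at that step without Day 28 replicate 1 (adjusted p = 0.0248), in a range of 0.0248 to 0.637. CYP7A1 was called higher than in the monolayer with scaling by library size alone at Day 7 (adjusted p = 0.0311) and Day 10 (0.0288), and by DESeq2 at Day 10 (0.0473). Leaving out monolayer replicate 1 also gave the call at Day 7 (0.0399) and Day 10 (0.0303), as did leaving out Day 10 replicate 1 at Day 10 (0.0306). Over the alternatives the adjusted p ran from 0.0311 to 0.24 at Day 7 and from 0.0288 to 0.259 at Day 10. Library size scaling moved the median of all genes against the monolayer by 0.137 to 0.216 on the log2 scale. Fits of Day 3 with the monolayer alone gave no value for CYP7A1 and CYP8B1, as both then missed the filter, and 6 members were called in it, against 8 in the fit of all libraries and 9 without the filter.

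With 1 library left out, differences that were not called changed sign, with these ranges on the log2 scale. From Day 7 to Day 10 they were -0.23 to 0.34 for CYP7A1, -0.29 to 0.082 for CYP8B1, -0.029 to 0.12 for HSD3B7 and -0.078 to 0.18 for BAAT. From Day 10 to Day 14 they were -0.81 to 0.047 for CYP7A1, -0.014 to 0.097 for CYP27A1 and -0.13 to 0.10 for BAAT. From Day 14 to Day 21 they were -0.067 to 0.15 for HSD3B7 and -0.023 to 0.15 for SCP2. The cause was not tested.

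No strong pairing by replicate number was seen: 63 same-number pairs had a mean correlation of deviations of 0.0176, and none was over 0.1. The mean of 126 different-number pairs was lower, at -0.00878. A small mean over pairs cannot exclude a weak link, and whether same-number samples shared a culture or plate was not tested. With a replicate block, BAAT (log2 0.47 from Day 3 to Day 7) and SCP2 (log2 -0.22 from Day 21 to Day 28, adjusted p = 0.0287) were called in addition, and no call was lost; SCP2 was also called without Day 21 replicate 3 (0.00603), in a range of 0.00603 to 0.306. Depth limits CYP7A1, CYP8B1, CYP7B1 and AMACR.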
